A study of Mus musculus with 6 samples.

Results

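Histidine decarboxylase, encoded by Hdc, was measured beside the mast cell genes Cpa3 and Ms4a2 in tumor endothelial cells (TECs) of mice with and without endothelial Atg5. These 3 genes are 3 of the 750 genes in the deposited table. Hdc was chosen by its small p in the comparison of the 2 genotypes, so its own difference is a description and carries no test here. Cpa3 and Ms4a2 were chosen because mast cells are a known source of Hdc transcript.

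Hdc converts the amino acid histidine to histamine, and it is the enzyme that makes histamine in mammals. Histamine acts on vessels through receptors on endothelial cells, where it loosens junctions and brings P-selectin to the surface. Mast cells and basophils store histamine in granules and release it when antigen crosslinks IgE on their surface, and macrophages and neutrophils can also express Hdc when stimulated. Cpa3 encodes the granule protease carboxypeptidase A3, and Ms4a2 encodes the beta chain of the high-affinity IgE receptor. Both are defining genes of mast cells and are also found in basophils.

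The study asked how endothelial autophagy shapes the inflammatory state of tumor vessels. ATG5BECKO mice carried floxed Atg5 alleles and Pdgfb-CreERT2, a tamoxifen-inducible Cre that acts in blood endothelial cells, and their Cre-negative littermates served as WT. The line was also crossed to a Rosa26 tdTomato reporter, and the labels give the strain as C57Blk6. The methods give mice of both sexes aged 7 to 14 weeks and a tamoxifen course of 5 days, without the sex, age or treatment of single samples. Each mouse received 250000 B16-F10 cells, a mouse melanoma line, under the skin, and tumors were taken on day 18. Digested tumors were depleted of CD45+ cells on magnetic beads, enriched for CD31+ cells and sorted as live CD45-CD31+ cells. There were 3 ATG5BECKO samples (replicates 2, 3 and 5) and 3 WT samples (replicates 1, 4 and 6). It is not stated if samples are single mice or pools, and p-values therefore reflect only the spread between the 6 samples.

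RNA was counted with the NanoString nCounter, in which barcoded probes hybridize to transcripts and are counted without amplification. Recovered whole counts summed to 187789, 198541 and 168454 in ATG5BECKO replicates 2, 3 and 5, against 171064, 244561 and 76784 in WT replicates 1, 4 and 6. WT replicate 4 stood apart on the leading principal component, at -13.3 against -3.41 to 6.28 in the other 5 samples. Atg5 is not among the 750 genes, so the deletion was not checked here. The 13 endothelial identity genes averaged 10.73 ± 0.16 log2 normalized counts in ATG5BECKO TECs and 10.64 ± 0.0063 in WT TECs (SD, n = 3 each), and Pecam1, which encodes CD31, was read by 6134 to 7399 counts in ATG5BECKO samples and 2926 to 10508 in WT samples. In bulk samples, fewer cells of a type and less RNA per cell cannot be told apart.

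Hdc was the more abundant in every ATG5BECKO sample. Its deposited level was 5.83, 6.08 and 6.05 log2 normalized counts in ATG5BECKO replicates 2, 3 and 5, against 4.79, 4.25 and 4.95 in WT replicates 1, 4 and 6. The groups did not overlap, and the lowest ATG5BECKO sample lay 0.87 log2 units above the highest WT sample. The ATG5BECKO samples lay close together, while WT replicate 4 was below the other WT samples.

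On the linear scale, Hdc averaged 63.7 ± 6.00 normalized counts in ATG5BECKO TECs and 25.9 ± 6.16 in WT TECs (SD, n = 3 each), a ratio of 2.46. On the log2 scale the means were 5.99 ± 0.14 in ATG5BECKO TECs and 4.67 ± 0.37 in WT TECs, and the log2 fold change was 1.32 with a standard error of 0.23. It ranked 1 by p among the 379 genes that the authors' low-signal filter kept, which is how it was chosen, and 12 by log2 fold change among the 41 genes that were higher by 0.7 or more on the log2 scale with an unadjusted p under 0.05 in limma. Those 41 genes are 10.8% of the 379. No gene reached an adjusted p under 0.05 in limma among the 379, where the smallest was 0.129, although 61 had an unadjusted p under 0.05 and voom on the recovered counts called 20.

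A complete separation of the groups was not rare in this table. Every ATG5BECKO sample lay above every WT sample for 97 of the 379 kept genes (25.6%) and for 103 of all 750 genes (13.7%). The median log2 fold change of the kept genes was 0.24, and 74.4% of them were positive. The Hdc difference thus sits on a table in which most genes were the higher in ATG5BECKO samples, and centring each sample on the median of the kept genes, which took their median log2 fold change to -0.14, left an Hdc log2 fold change of 0.94. The Hdc groups stayed apart under each of 4 other scalings (median centring, quantile normalization, and scaling to the endothelial identity genes or to the total count, the last chosen after seeing the data). Without WT replicate 4 the value was 1.11.

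**Figure D1:**
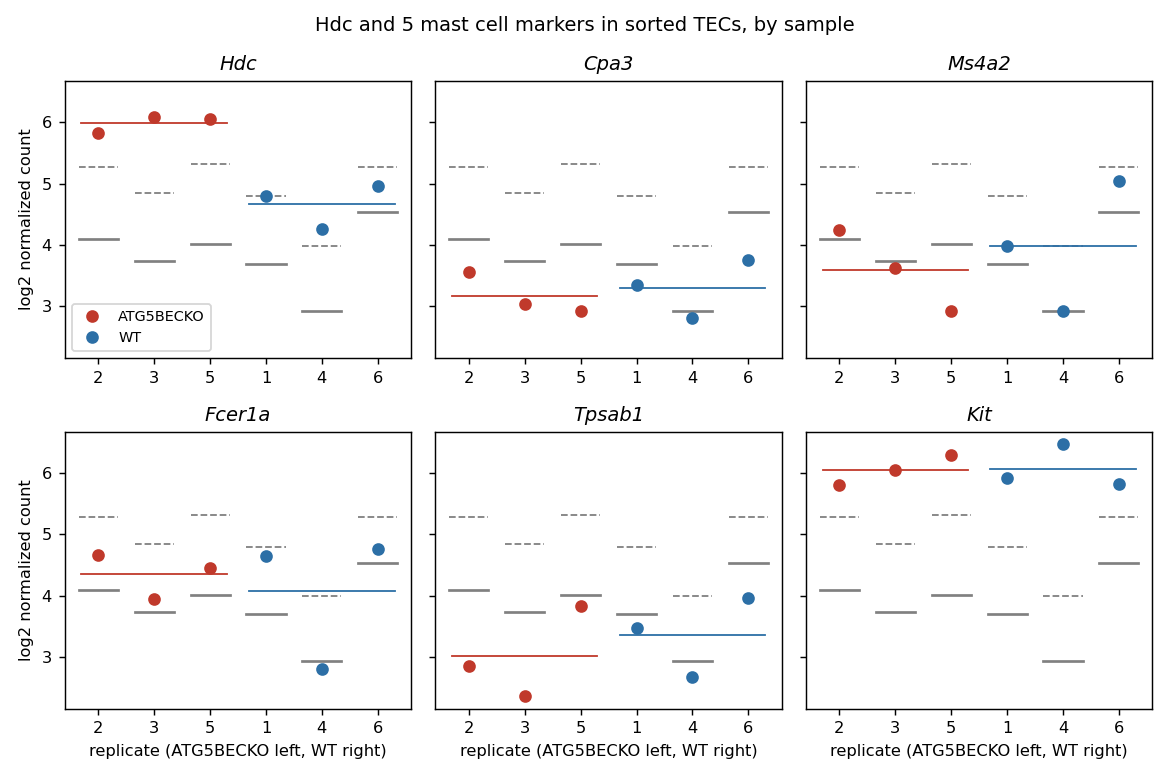
Log2 normalized counts (y axis) of Hdc and 5 mast cell markers in each sample (x axis), with ATG5BECKO replicates 2, 3 and 5 on the left in red and WT replicates 1, 4 and 6 on the right in blue; coloured lines are group means, and short grey lines are the median (solid) and highest (dashed) of 17 epithelial and germline genes in that sample. Hdc lies above the dashed line in all 3 ATG5BECKO samples, and Cpa3, Ms4a2, Fcer1a and Tpsab1 stay below it in 6 of 6 samples.

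Few molecules stood behind the Hdc values. Its recovered counts were 63, 66 and 70 in ATG5BECKO replicates 2, 3 and 5, with 95% exact Poisson intervals of 48.4 to 80.6, 51.0 to 84.0 and 54.6 to 88.4. In WT replicates 1, 4 and 6 they were 30, 30 and 16, with intervals of 20.2 to 42.8, 20.2 to 42.8 and 9.15 to 26.0. The intervals cover counting error only and are of counts not scaled for the depth of each sample. In normalized counts they ran from 43.6 to 72.6 in ATG5BECKO replicate 2, the lowest of its group, and from 17.7 to 50.3 in WT replicate 6, the highest of its group, so these 2 overlapped. Relative to the total of each sample, Hdc took 33.5, 33.2 and 41.6 of every 100000 counts in the ATG5BECKO samples, against 17.5, 12.3 and 20.8 in the WT samples.

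The background was gauged from 17 probes for genes of epithelium, germline or embryonic cells, such as Sox2, Magea4 and Col17a1, which are not known as endothelial genes. None of the 17 was kept by the low-signal filter. Their mean was 19.5, 13.1 and 20.5 counts in ATG5BECKO replicates 2, 3 and 5, against 15.2, 12.8 and 12.3 in WT replicates 1, 4 and 6. Probes differ in their own background, so a count near this mean is read here as not distinguished from it.

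Hdc was above every one of the 17 probes in the 3 ATG5BECKO samples and in WT replicate 4, while 2 of the 17 reached its count in WT replicate 1 and 3 in WT replicate 6. Its count was 3.23, 5.05 and 3.41 times the background mean in ATG5BECKO samples, against 1.97, 2.34 and 1.30 times in WT samples. Hdc was thus above these 17 probes in ATG5BECKO TECs and close to their mean in WT replicate 6, where the interval of the ratio began below 1. Probes outside the 17 could read as high. Il1r2, listed below as a granulocyte gene, had 43, 32 and 70 counts in ATG5BECKO replicates 2, 3 and 5. Whether such counts are probe background was not tested. With the background mean subtracted, 39.2, 54.4 and 47.0 normalized counts were left in ATG5BECKO samples, against 13.7, 10.9 and 7.17 in WT samples.

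After this subtraction the means were 46.8 ± 7.59 normalized counts in ATG5BECKO TECs and 10.6 ± 3.26 in WT TECs (SD, n = 3 each), a ratio of 4.43. The size of the Hdc fold therefore depended on how the background was treated, with a log2 fold change of 2.18 after subtraction and 1.05 with 10 normalized counts added to each value. The direction was the same under both, although adding a constant could not reverse it while the groups did not overlap. Within the table, Hdc stood above 60.8%, 66.1% and 64.5% of the 750 genes in ATG5BECKO samples, against 41.1%, 48.5% and 36.8% in WT samples.

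**Figure D2:**
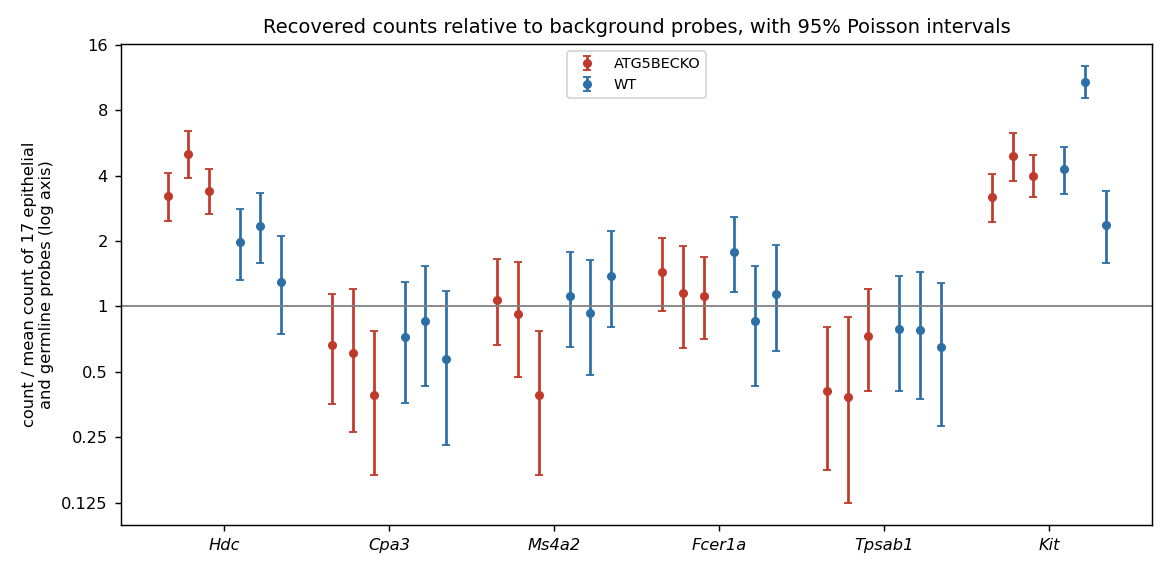
Recovered count of each gene divided by the mean count of 17 epithelial and germline probes in the same sample (y axis, log scale), for Hdc and 5 mast cell markers (x axis), with ATG5BECKO replicates 2, 3 and 5 in red to the left of WT replicates 1, 4 and 6 in blue; bars are 95% exact Poisson intervals of the gene's count and the grey line marks a ratio of 1. Hdc runs from 3.23 to 5.05 in ATG5BECKO samples and from 1.30 to 2.34 in WT samples, while Cpa3 is below 1 in all 6 samples.

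Cpa3, the granule protease, was at background in both genotypes. Its counts were 13, 8 and 8 in ATG5BECKO replicates 2, 3 and 5, against 11, 11 and 7 in WT replicates 1, 4 and 6. The groups overlapped, the 3 samples of each group summed to 29 counts in both, and at least 11 of the 17 background probes reached the Cpa3 count in each sample.

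On the log2 scale Cpa3 was 3.55, 3.04 and 2.93 in the ATG5BECKO samples, against 3.35, 2.81 and 3.76 in the WT samples. The means were 3.17 ± 0.33 in ATG5BECKO TECs and 3.30 ± 0.48 in WT TECs (SD, n = 3 each). The log2 fold change was -0.13, with a 95% interval of -0.92 to 0.65 and an adjusted p of 0.983 in limma over all 750 genes. A gene at probe background has its fold pulled toward 0, so this interval does not bound the change of the transcript itself, and the same holds for the other markers at background.

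Ms4a2, the IgE receptor chain, was likewise at background level, with a wide spread. It had 21, 12 and 8 counts in ATG5BECKO replicates 2, 3 and 5, against 17, 12 and 17 in WT replicates 1, 4 and 6. Its log2 level was 4.24, 3.62 and 2.93 in ATG5BECKO samples, against 3.98, 2.93 and 5.04 in WT samples. The highest value belonged to WT replicate 6, the sample with the lowest total, in which 1 count was worth 1.94 normalized counts.

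Ms4a2 averaged 3.60 ± 0.66 log2 normalized counts in ATG5BECKO TECs and 3.98 ± 1.05 in WT TECs (SD, n = 3 each). The log2 fold change was -0.39, with a 95% interval of -1.74 to 0.97 and an adjusted p of 0.983 in limma. Its count was 0.39 to 1.08 times the background mean in ATG5BECKO samples and 0.94 to 1.38 times in WT samples.

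Of the 12 mast cell genes listed, 5 have a probe in the table: Cpa3, Ms4a2, Fcer1a, Tpsab1 and Kit. None of the 5 passed an adjusted p under 0.05 in limma, where 0% of the 750 genes did. None had an unadjusted p under 0.05 in limma, beside 7.07% of the 750 genes, a share at which 0 of 5 says little. Their log2 fold changes were negative for 4 and positive for 1 (negative for 5 with median centring), with a median of -0.13, beside a median of 0.17 over the 750 genes, of which 66.9% were positive. The groups overlapped for all 5, beside 13.7% of the 750 genes with every ATG5BECKO sample above every WT sample.

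Fcer1a, the IgE-binding alpha chain of the same receptor, was the 1 with a positive value. It had 28, 15 and 23 counts in ATG5BECKO samples, against 27, 11 and 14 in WT samples. In WT replicate 1 its count was 1.77 times the background mean, with a 95% interval of 1.17 to 2.58. Its log2 fold change was 0.28, with a 95% interval of -0.99 to 1.55 and an adjusted p of 0.983 in limma.

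Tpsab1, which encodes a tryptase of mast cell granules, was low in all samples. It had 8, 5 and 15 counts in ATG5BECKO samples, against 12, 10 and 8 in WT samples, and every one of these was below the background mean. Its log2 fold change was -0.35, with a 95% interval of -1.48 to 0.77 and an adjusted p of 0.973 in limma.

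Kit, the receptor for stem cell factor, was the only one of the 5 that the low-signal filter kept, and it is not particular to mast cells, since melanocytes and some endothelial cells use it too. It had 62, 64 and 82 counts in ATG5BECKO samples, against 65, 139 and 29 in WT samples. Its log2 level was 5.80, 6.04 and 6.28 in ATG5BECKO samples, against 5.91, 6.47 and 5.81 in WT samples, so the groups overlapped. The log2 fold change was -0.02, with a 95% interval of -0.70 to 0.66 and an adjusted p of 0.990 in limma.

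Summed over the 5 markers, the level was 107 to 129 normalized counts in ATG5BECKO samples and 116 to 145 in WT samples. Leaving out Kit, the other 4 summed to 63.1, 41.1 and 51.3 normalized counts in ATG5BECKO replicates 2, 3 and 5, against 62.0, 28.0 and 89.0 in WT replicates 1, 4 and 6. Their mean count was 0.66 to 0.90 times the background mean in ATG5BECKO samples and 0.86 to 1.10 times in WT samples. Cpa3, Ms4a2 and Tpsab1 were thus at or near background in both groups, while Hdc was above all 17 background probes in the 3 ATG5BECKO samples. Fcer1a was near background too, except in WT replicate 1, where it stood at 1.77 times the background mean and Hdc at 1.97 times. In WT replicate 6, Ms4a2 had 17 counts and Hdc 16. None of the 4 markers was at 0, and mast cells below the background of these probes cannot be seen here.

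**Figure D3:**
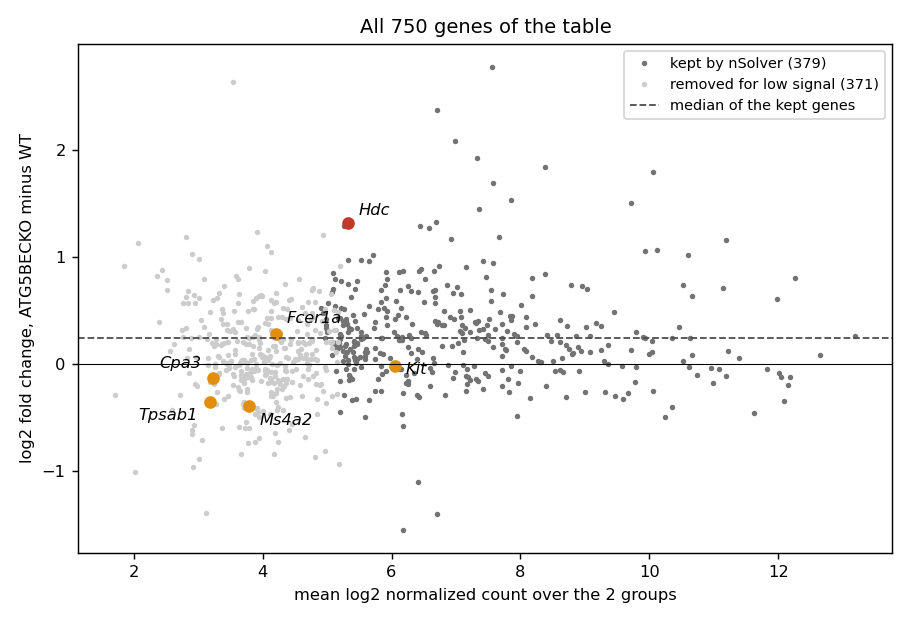
Log2 fold change, ATG5BECKO minus WT (y axis), against the mean log2 normalized count over the 2 groups (x axis) for all 750 genes, dark grey for the 379 kept by the low-signal filter and light grey for the rest, with Hdc in red and the 5 mast cell markers in orange. Hdc sits at 1.32, above the dashed median of 0.24, and the 5 markers sit between -0.39 and 0.28.

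Hdc was the only one of 13 listed genes of histamine metabolism, storage and reception with a probe in the table, so neither the enzymes that break histamine down, such as Hnmt, nor the receptors Hrh1 and Hrh2 were analysed here. Among the 3 genes described, Hdc alone passed the low-signal filter. In 2 of the 3 WT samples it lay within the range of the background probes, and in none of the 3 ATG5BECKO samples.

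Other leukocytes that can express Hdc were read from their own lists, on all 750 genes in limma. Of 10 granulocyte genes, 0 passed an adjusted p under 0.05, as did 0% of the 750 genes. An unadjusted p under 0.05 in limma was reached by 0 of the 10, beside 7.07% of the 750 genes. Of the 10, 7 were positive and 3 negative, while 66.9% of the 750 genes were positive. The median log2 fold change of the 10 was 0.23, which became -0.15 with median centring. The list summed to 226 to 301 normalized counts in ATG5BECKO samples and 117 to 331 in WT samples. Siglecf, an eosinophil receptor, was 5.31, 5.40 and 5.54 log2 normalized counts in ATG5BECKO samples, against 5.02, 4.05 and 5.71 in WT samples, and its log2 fold change was 0.49 ± 0.42 (standard error) at an adjusted p of 0.872 in limma. Il1r2, a decoy receptor for interleukin-1, and Trem1, an activating receptor of neutrophils and monocytes, had log2 fold changes of 0.04 and 0.26 with overlapping groups.

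Of 14 monocyte and macrophage genes, 8 were positive and 6 negative, with a median log2 fold change of 0.03 that fell below 0 under 4 other scalings. None of them passed an adjusted p under 0.05 in limma, and 1 of the 14 had an unadjusted p under 0.05, beside 7.07% of the 750 genes. The list summed to 425 to 512 normalized counts in ATG5BECKO samples and 249 to 658 in WT samples. Csf1r, the receptor for macrophage colony-stimulating factor, was 6.68, 6.36 and 6.69 log2 normalized counts in ATG5BECKO samples, against 6.73, 5.92 and 7.20 in WT samples, and its log2 fold change was -0.04. Cd14, the co-receptor for lipopolysaccharide, was the single member whose groups did not overlap, beside 13.7% of the 750 genes with every ATG5BECKO sample above.

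Cd14 was 5.66, 6.41 and 5.97 log2 normalized counts in ATG5BECKO samples, against 4.98, 4.74 and 5.41 in WT samples. Its log2 fold change was 0.97 ± 0.31 (standard error) at an adjusted p of 0.447 in limma, and the groups stayed apart under each of 4 other scalings. Cd14 was thus apart between the groups as Hdc was, while C1qb, a complement gene of macrophages, had a log2 fold change of 0.26 and overlapping groups. The part of Cd14-expressing cells in the Hdc difference was not tested.

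Ptprc, which encodes the CD45 that the sort was to remove, was named after its values were seen. It had 56, 31 and 34 counts in ATG5BECKO replicates 2, 3 and 5, against 51, 16 and 19 in WT replicates 1, 4 and 6. The groups overlapped, and the counts were 1.66 to 2.87 times the background mean in ATG5BECKO samples and 1.25 to 3.35 times in WT samples. Ptprc was above all 17 background probes in ATG5BECKO replicates 2 and 3 and in WT replicate 1, while 3 of the 17 reached it in ATG5BECKO replicate 5, and 6 and 2 of them in WT replicates 4 and 6.

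The melanoma cells are another source of RNA in these tumors. All 3 melanocyte genes in the table, Kit, Mlana and Sox10, had log2 fold changes below 0, from -0.74 to -0.02, with overlapping groups and none at an adjusted p under 0.05 in limma. Of 15 lymphocyte genes, 13 were positive, the median log2 fold change was 0.30 (-0.07 with median centring) and none passed the same threshold. An unadjusted p under 0.05 in limma was reached by 1 of the 15, beside 7.07% of the 750 genes. Every ATG5BECKO sample was above every WT sample for 1 of the 15, beside 13.7% of the 750 genes, and below for 1. The 17 background genes themselves had a median of 0.24 (-0.14 with median centring), with 10 positive and none whose groups were apart.

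Across the 6 samples the mast cell markers had lower correlations with Hdc than the median kept gene. Pearson's r with Hdc on the log2 scale was -0.01 for Cpa3, -0.06 for Ms4a2, 0.44 for Fcer1a, -0.08 for Tpsab1 and -0.24 for Kit. Over the other 378 kept genes the median r was 0.49, and 47 of them had an r of at least 0.9. These correlations describe 6 samples that share the 2 groups and the scaling of each sample, and low counts weaken those of the markers. Of the 5 markers only Kit passed the low-signal filter, so the kept genes are not a like set. Of the kept genes 74.4% also shared the positive direction by which Hdc was chosen.

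The 5 kept genes most like Hdc over the 6 samples were Relb (r = 0.99), Cxcl1 (0.98), Irf7 (0.98), Kat2b (0.97) and Tap2 (0.97). Relb encodes an NF-κB subunit, Cxcl1 a neutrophil chemokine, Irf7 an interferon regulatory factor, Kat2b a histone acetyltransferase and Tap2 a subunit of the peptide transporter for MHC class I. All 5 had every ATG5BECKO sample above every WT sample, as 25.6% of the kept genes did. Since Hdc was chosen by its difference between the groups, a gene like it had to share that difference, and the likeness carries no test.

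Relb was 7.29, 7.52 and 7.40 log2 normalized counts in ATG5BECKO samples, against 6.81, 6.57 and 6.88 in WT samples. It had the same order of samples as Hdc in WT, with replicate 4 lowest and replicate 6 highest. Cxcl1 spanned the widest range of the 5, with 7.39, 8.42 and 7.87 in ATG5BECKO samples, against 6.19, 4.43 and 5.95 in WT samples, and its log2 fold change was 2.37 ± 0.50 (standard error). The log2 fold changes of Irf7, Kat2b and Tap2 were 0.63, 0.73 and 0.30. The Tap2 value turned to -0.08 with median centring and -0.02 with quantile normalization, and its groups overlapped under each of 4 other scalings, whereas those of Relb, Cxcl1, Irf7 and Kat2b stayed apart.

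After the group means were taken out, r with Hdc was 0.95 for Relb, 0.93 for Cxcl1, 0.77 for Irf7, 0.75 for Tap2 and 0.69 for Kat2b over the same 6 samples. These genes were picked by their r with Hdc in the same samples, which favours high values here too. No such r of the other kept genes is given beside them, so these values carry no test. Hdc, Relb, Cxcl1, Irf7, Kat2b and Tap2 all had their lowest value in WT replicate 4. That sample also had the lowest normalized background mean, 8.15 against 13.4 to 19.5 in ATG5BECKO samples and 14.1 and 23.8 in the other WT samples.

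**Figure D4:**
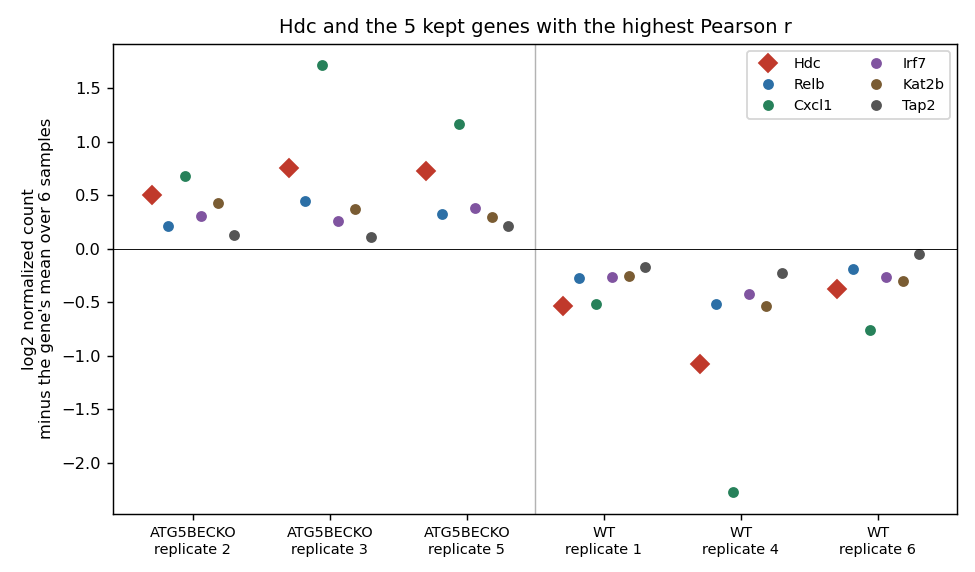
Log2 normalized count minus the gene's mean over 6 samples (y axis) for Hdc (red diamonds) and the 5 kept genes with the highest Pearson r with it (circles), by sample (x axis), with ATG5BECKO samples left of WT samples. Every point lies above 0 in ATG5BECKO samples and below 0 in WT samples, and the lowest points of all 6 genes are those of WT replicate 4.

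Immediate-early genes respond within minutes to stimuli and to tissue handling. All 10 of them had a positive log2 fold change on the deposited values and 8 of 10 with median centring, with medians of 0.81 and 0.43. The median over the 750 genes as deposited was 0.17, and that of the kept genes with median centring was -0.14. Every ATG5BECKO sample was above every WT sample for 5 of the 10, beside 13.7% of the 750 genes, and for 3 of the 10 with median centring, beside 4.67%. Egr1, an immediate-early transcription factor, was 10.41, 11.62 and 10.83 log2 normalized counts in ATG5BECKO samples, against 9.65, 8.10 and 9.71 in WT samples, and its log2 fold change was 1.80 ± 0.52 (standard error) at an adjusted p of 0.447 in limma. Their part in the Hdc difference was not tested.

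The Hdc log2 fold change was positive in each of 18 other settings of scaling, background, filter, model or samples, but many of these could not reverse it. The other gene filters, limma with a trend or robust, and the methods' t-test left it at 1.32. While the groups did not overlap, leaving out a sample or adding a constant could not change the sign. The Hdc log2 fold change ran from 0.94 with median centring to 2.18 with the background subtracted, and from 1.11 to 1.46 when 1 sample was left out. The median of the 5 mast cell markers ran from -0.51 to 0.095 in the 17 settings run for them. No marker reached an adjusted p under 0.05 in those settings, which include voom and the methods' t-test beside limma, and the lowest was 0.577 in a limma fit.

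**Figure D5:**
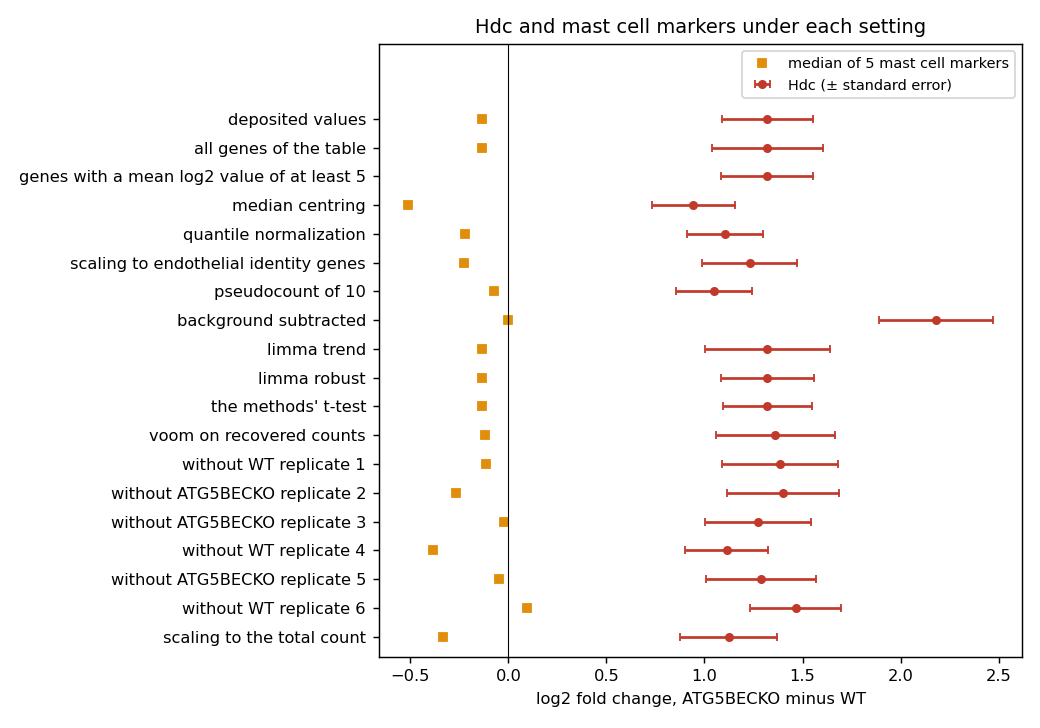
Log2 fold change, ATG5BECKO minus WT (x axis), of Hdc (red circles, bars ± 1 standard error) and the median of 5 mast cell markers (orange squares) under each setting (y axis). Hdc lies between 0.94 and 2.18 and the marker median between -0.51 and 0.095; the marker median beside "all genes of the table" comes from a fit of the genes averaging 3 or more on the log2 scale, and a minimum of 5 leaves no marker median.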

How the data were processed

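The authors normalized nCounter counts in nSolver 4.0 (advanced analysis) and deposited them as log2 values for 750 genes. The methods name the NanoString PanCancer Mouse Immune Profiling panel, and the deposited genes, which include endothelial genes and germline antigens, were not checked against a list of its probes. Each sample's values were whole multiples of 1 step within 0.01 for 100% of values, which gave whole counts and total counts per sample. Genes removed for low signal were taken from the gene names of the study's own comparison table, whose fold changes and p-values were not used. limma 3.58.1 in R 4.3.3 (lmFit, eBayes, Benjamini-Hochberg) was fitted to the 379 kept genes for Hdc and to all 750 genes for the markers and lists, without covariates. The members and lists were chosen with earlier results of these data known. Named genes were Hdc, the mast cell markers, the 5 kept genes with the highest r with Hdc and up to 3 of the highest members of each other list. On simulated data with 379 genes, the fit recovered 72.7% of changes of 1 log2 unit and 93.8% of changes of 2. With 750 genes it recovered 42.4% and 83.2%. The simulation changed 88 of the 379 genes by 1 log2 unit and 112 by 2, and 99 and 101 of the 750. Its noise was independent between genes, without effects on a whole sample. So many changed genes ease the adjusted threshold, so these figures are not the power of the real comparison. Correlations and intervals used Python 3.11.15, pandas 2.3.3 and scipy 1.17.1, and figures matplotlib 3.10.9. Alternatives were other filters and scalings, a pseudocount, background subtraction with a floor of 1, limma with a trend or robust, the methods' t-test, voom, and leaving out each sample.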

Additional observations from a re-analysis of the deposited data

How the results depend on the processing

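Values are log2 fold changes, ATG5BECKO minus WT. Hdc, 1.32 on the deposited values, was 0.94 with median centring and 2.18 with the background subtracted, and 1.11 to 1.46 with 1 sample left out. The genes called at an unadjusted p under 0.05 and 0.7 log2 units or more numbered 44 (41 higher, 3 lower), 30 with median centring (17 higher, 13 lower), 29 with quantile normalization (22 higher, 7 lower), 24 with scaling to the total count (21 higher, 3 lower), a setting chosen after seeing the data, and 34 to 62 with 1 sample left out. Adjusted p under 0.05 was reached by 0 genes in limma, by 20 with voom on the recovered counts and by 18 without WT replicate 6, and leaving out 1 sample gave 0 to 18. The median log2 fold change of the kept genes, 0.24, was -0.14 with median centring, -0.02 with quantile normalization, 0.15 with scaling to endothelial identity genes and 0.04 with scaling to the total count.

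Signs of the low markers were not stable. Cpa3, -0.13, was 0.095 without WT replicate 6 and -0.38 to 0.095 with 1 sample left out. Ms4a2, -0.39, was 0.14 without WT replicate 6 and -0.91 to 0.14 with 1 sample left out. Fcer1a, 0.28, was -0.10 with median centring, -0.0035 with the background subtracted and -0.35 without WT replicate 4, and -0.35 to 0.63 with 1 sample left out. Kit, -0.02, was 0.10 without ATG5BECKO replicate 2 and 0.18 without WT replicate 4, and -0.15 to 0.18 with 1 sample left out. The marker median ran from -0.38 to 0.095 with 1 sample left out. For these changes the cause was not tested. The counts of 5 to 28 behind 4 of the markers limit what can be seen of them. No paired analysis was possible because the labels number the samples 1 to 6 once each, with no number shared between the groups.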
